A study of Arabidopsis thaliana with 6 samples.

Results

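BCAT4, UGT74C1 and UGT74B1 encode enzymes of glucosinolate synthesis, and each was read by a single probe set on Affymetrix arrays of Arabidopsis thaliana leaves. The members were the 3 probe sets, of 22746 tested, whose only listed gene was BCAT4 (AT3G19710), UGT74C1 (AT2G31790) or UGT74B1 (AT1G24100). The gene tables used here give AT2G31790 by its locus alone, and UGT74C1 is the name in common use for that locus. The study compared expanding rosette leaves, leaves 3 to 6, of sto2 null mutants with those of wild-type plants, 3 biological replicates of each, to look for genes that may act downstream of STO2. The sto2 plants came as 3 separate samples of the mutant, and the wild type was the Col-0 ecotype. Both genotypes were 3 weeks old, grown in soil with 16 h of light at 22 °C and 8 h of dark at 18 °C, and received no treatment. The labels name neither the locus of STO2 nor the background in which the mutant was made or its allele, so the labels were not checked against the level of the mutated gene.

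Glucosinolates are sulfur-rich defence compounds of Arabidopsis and its relatives. In the aliphatic branch, methionine is first lengthened in a chain-elongation cycle, and BCAT4 is the aminotransferase that starts this cycle by removing the amino group of methionine. The core structure is then built by cytochrome P450, conjugating and cleaving enzymes, after which UGT74 glucosyltransferases add glucose to a thiohydroximate; UGT74B1 acts broadly, while UGT74C1 is tied to the aliphatic route. Intact glucosinolates are moved by the transporters GTR1 and GTR2, and myrosinases release toxic products from them when tissue is damaged.

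Signals are given in linear intensity units as deposited, after 1 scaling factor per array. Array medians ran from 37.0 to 38.5, and the 6 arrays are the limit on the precision of every value. Of the photosynthesis markers, 6 of 7 were measured, and they read between 2842.6 and 5503.4 on every array. The apex markers CLV3 and UFO exceeded the highest bacterial control reading, used here as the background level, on 0 of the 6 arrays, and the root markers EXP7 and PYK10 did so on 1 each. Wild-type replicate 1 had the lowest array quality weight from limma, 0.532 against 0.778 to 1.55 for the other 5 arrays. Among the 14157 probe sets above the controls on every array, it held the lowest of the 6 readings for 20.3%, against 12.2% to 18.8% for the other arrays. The log2 differences of the 3 genes, the correlations between them and their likeness to other genes over the 6 arrays are given with and without it.

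BCAT4 had the largest difference of the 3 genes, with higher signal on every sto2 array than on any wild-type array. It read 927.8, 795.1 and 991.3 on sto2 arrays 1, 2 and 3, and 128.8, 655.1 and 298.5 on wild-type arrays 1, 2 and 3. The sto2 readings lay close together, whereas the wild-type readings were spread widely, with replicate 2 not far below the lowest sto2 array. The mean was 905 ± 100.1 in sto2 and 361 ± 269 in wild type (SD, n = 3 each), a ratio of 2.51. On the log2(signal + 16) scale the difference, sto2 minus wild type, was 1.55 ± 0.50 (SE), with a 95% interval from 0.36 to 2.74. The interval is from limma's moderated SE, which takes the same variance for both genotypes. The log2 SD was 0.16 in sto2 and 1.11 in wild type, so the interval depends on that assumption. The difference did not pass the threshold of 0.05 in limma with Benjamini-Hochberg adjustment over all probe sets (adjusted p = 0.251).

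UGT74C1, the glucosyltransferase of the aliphatic route, read 188.8, 140.1 and 193.6 on the sto2 arrays and 82.7, 163.7 and 174.5 on the wild-type arrays. Wild-type replicate 1 gave the lowest reading, and the other 2 wild-type readings lay within the sto2 range. Its mean was 174 ± 29.6 in sto2 and 140.3 ± 50.2 in wild type, and the log2 difference was 0.33 ± 0.26 (95% interval from -0.30 to 0.96, limma adjusted p = 0.637).

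UGT74B1, the other glucosyltransferase gene, had readings of 244.4, 188.7 and 234.9 in sto2 and 131.0, 227.0 and 198.6 in wild type. Here too the lowest reading was that of wild-type replicate 1, and sto2 replicate 2 lay below both other wild-type arrays. Its mean was 223 ± 29.8 in sto2 and 186 ± 49.3 in wild type, and the log2 difference was 0.27 ± 0.20 (95% interval from -0.20 to 0.74, limma adjusted p = 0.602). For both glucosyltransferase genes the interval includes 0 and also includes a log2 difference of over 0.7, so the arrays do not show that their levels were alike.

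**Figure D1:**
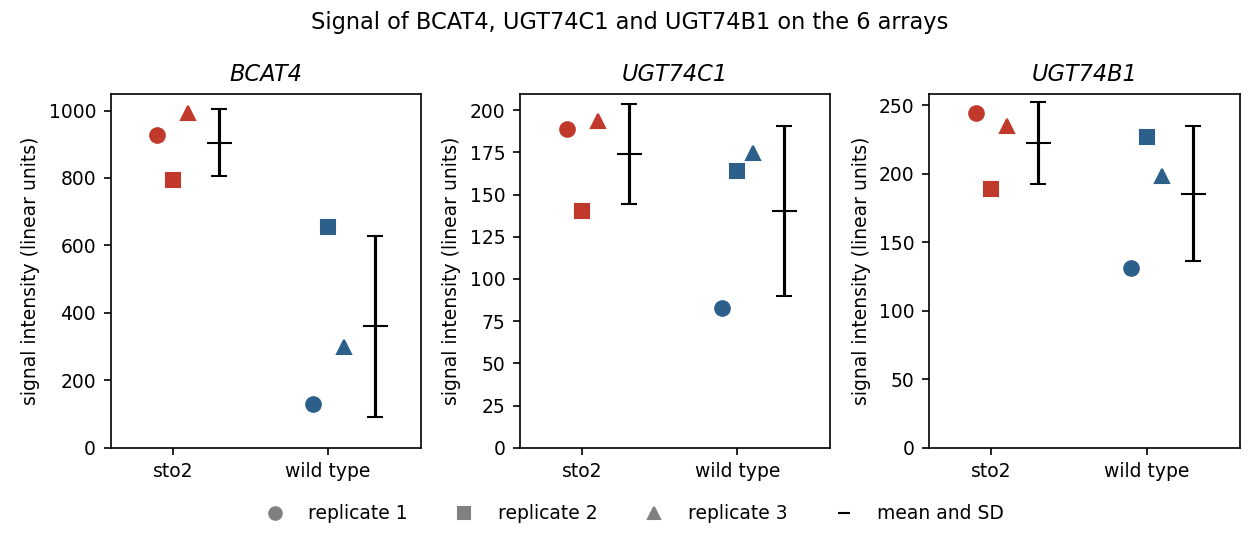
Signal intensity (linear units) of BCAT4, UGT74C1 and UGT74B1 on each array, sto2 on the left and wild type on the right of each panel, with the mean and SD in black. BCAT4 reads 795.1 or more on the sto2 arrays and 655.1 or less on the wild-type arrays, whereas the groups overlap for UGT74C1 and UGT74B1.

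Of the 3 genes, 0 passed over all probe sets, where 0.127% of the 22746 probe sets passed. At an unadjusted p under 0.05 there was 1 of the 3, BCAT4, against 14.1% of all probe sets. The groups did not overlap with sto2 higher for 1 of the 3, again BCAT4, and this was so for 9.01% of all probe sets. In the order of p-values over the array BCAT4 stood at place 1619, UGT74B1 at 8279 and UGT74C1 at 9021.

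The change of BCAT4 was set against that of each glucosyltransferase through the log2 ratio of their readings within each array. BCAT4 had a log2 difference larger by 1.22 than that of UGT74C1 and by 1.28 than that of UGT74B1, and in both cases the sto2 and wild-type ratios did not overlap. The exact permutation test over arrays gave p = 0.1 for each (2-sided; adjusted p = 0.15 over the 3 pairs), which is the smallest p that 3 arrays against 3 allow. UGT74C1 and UGT74B1 differed from each other by 0.06 in their log2 difference (exact permutation p = 0.6, adjusted p = 0.6). The ratio test was added after values were seen. The readings of BCAT4 by themselves already did not overlap between the groups, as was so for 19.2% of all probe sets in either direction. The share of other gene pairs with ratios that did not overlap was not computed.

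The spread of BCAT4 among wild-type leaves was among the widest on the array. Its log2 SD over the wild-type arrays was 1.11, with a 5.09-fold gap between the highest and lowest reading, and only 6 of the 22746 probe sets had a larger wild-type SD. In sto2 the log2 SD of BCAT4 was 0.16, its readings spanned 1.25-fold, and 29.7% of probe sets had a larger SD. UGT74C1 had log2 SDs of 0.24 in sto2 and 0.53 in wild type, and UGT74B1 had 0.19 in sto2 and 0.38 in wild type. A larger SD in wild type than theirs was found for 1.13% of probe sets in the case of UGT74C1 and for 4.77% in the case of UGT74B1. In sto2 these shares were 11.9% and 22.1%, so the glucosyltransferase genes ranked high in spread in sto2 as well. The difference in spread between the genotypes was not tested.

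Leaving out each array in turn showed how far the differences rest on wild-type replicate 1. Without it the log2 difference was 1.00 ± 0.31 for BCAT4 (limma adjusted p = 0.223), 0.03 ± 0.15 for UGT74C1 (adjusted p = 0.957) and 0.06 ± 0.13 for UGT74B1 (adjusted p = 0.884). Set against wild-type replicate 1 alone, the sto2 mean of BCAT4 was 7.02-fold higher, against 1.38-fold for wild-type replicate 2 and 3.03-fold for replicate 3. Without wild-type replicate 2 the log2 difference of BCAT4 was 2.10 ± 0.32 (adjusted p = 0.195). Without any other array it lay between 1.48 and 1.64. BCAT4 did not pass in any of these 6 fits, and its difference stayed positive in each of them.

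**Figure D2:**
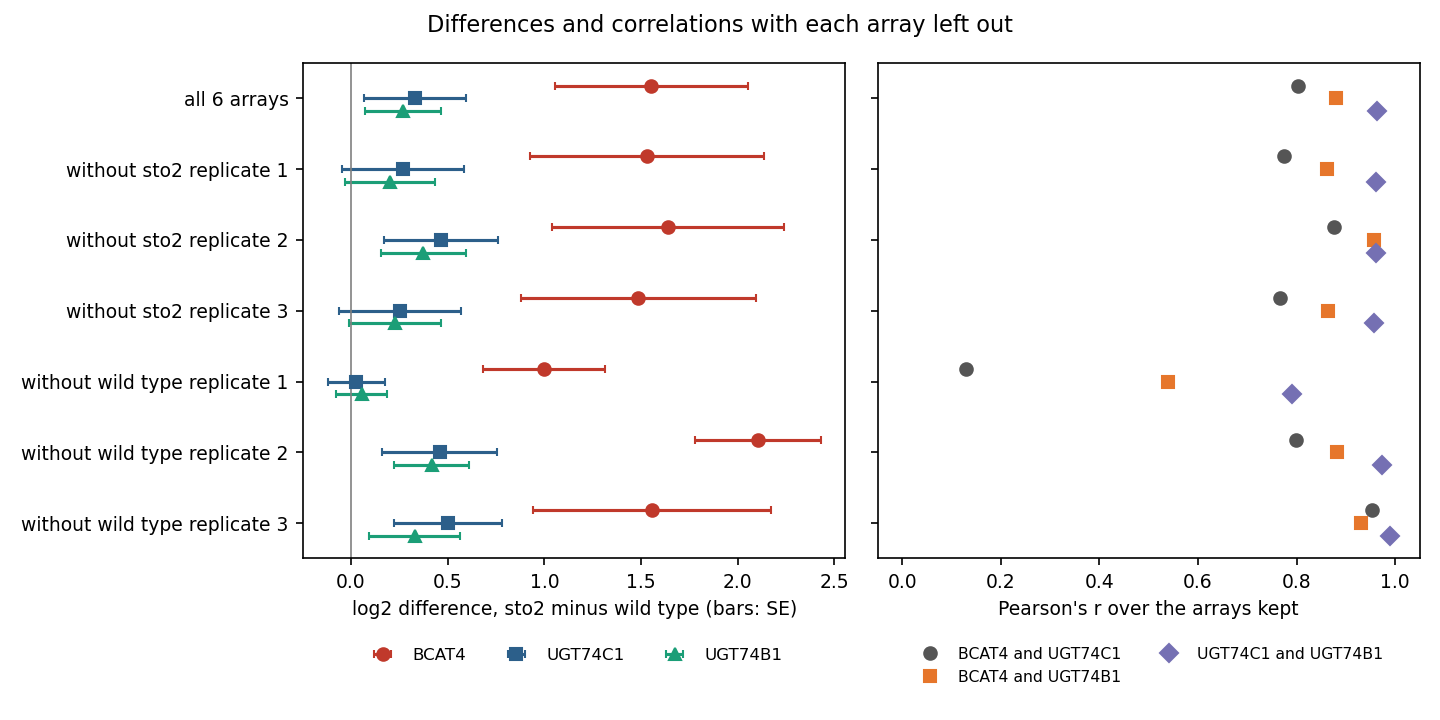
Left, log2 difference (sto2 minus wild type, log2(signal + 16) scale, bars are SE) of the 3 genes over all 6 arrays and with each array left out; right, Pearson's r between each pair of genes over the arrays kept. Without wild-type replicate 1 the differences of UGT74C1 and UGT74B1 are 0.03 and 0.06, and r between BCAT4 and UGT74C1 is 0.13.

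The readings of the 3 genes were positively correlated over the 6 arrays, with the highest r between the 2 glucosyltransferase genes. On the log2(signal + 16) scale, Pearson's r between UGT74C1 and UGT74B1 was 0.96 (Spearman's rho 0.89). The exact permutation p was 0.0139 for r and 0.0333 for rho, with an adjusted p of 0.0778 for each over the 6 coefficients of the 3 pairs. For BCAT4 and UGT74B1, r was 0.88 and rho 0.77 (exact permutation p = 0.0389 and 0.103, adjusted p = 0.0778 and 0.103). For BCAT4 and UGT74C1, r was 0.80 and rho 0.77 (exact permutation p = 0.0583 and 0.103, adjusted p = 0.0875 and 0.103). None of the 6 coefficients passed 0.05 after adjustment. Co-variation over the 6 arrays was part of the rule for these members, so the p-values are not independent of that choice. The permutation also exchanged arrays between the genotypes.

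Among deviations from the group means, which take out the difference between genotypes, r was 0.95 for UGT74C1 and UGT74B1, 0.91 for BCAT4 and UGT74B1, and 0.80 for BCAT4 and UGT74C1. The correlations were lower without the extreme arrays. Without the 2 arrays farthest from the median of the first gene of each pair, r was 0.49, 0.36 and 0.63 for the same pairs in that order, over 4 arrays. Without wild-type replicate 1 alone r was 0.79, 0.54 and 0.13. Leaving out extreme arrays narrows the range of a gene, which tends to lower r. These values therefore do not show what the correlations rest on. Within sto2 and within wild type there were 3 arrays each, too few for a correlation of their own. Replicate 2 had the lowest sto2 reading for all 3 genes, and replicate 1 had the lowest wild-type reading for all 3. Over all probe sets tested, deviations from group means on these 2 arrays had r of 0.269, the highest between any sto2 and any wild-type array. The part of such array-wide deviations in the correlations of the 3 genes was not tested.

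**Figure D3:**
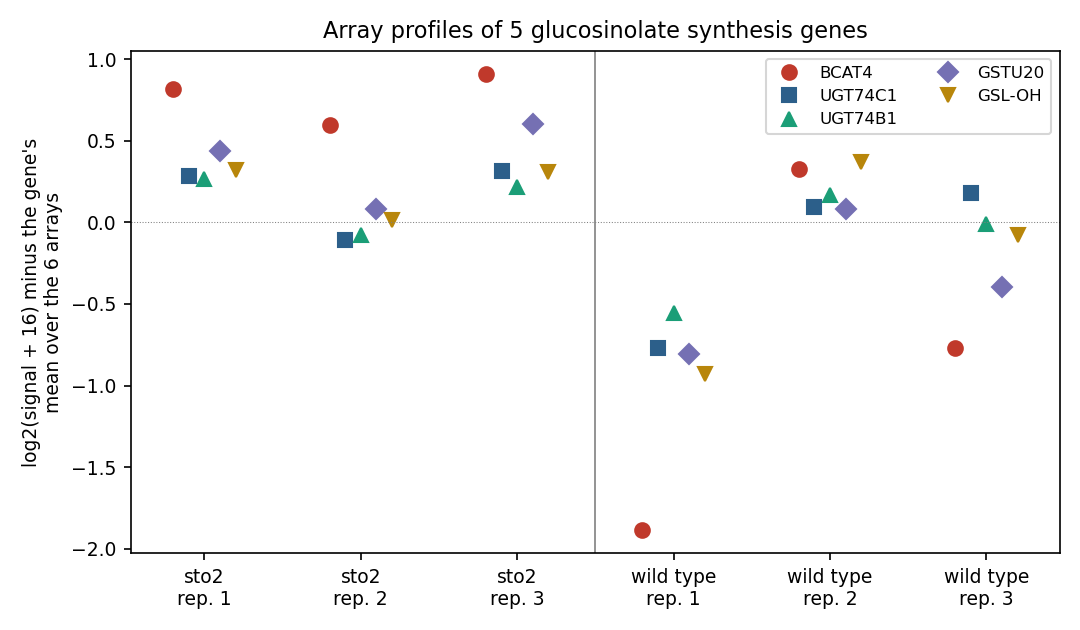
Log2(signal + 16) of BCAT4, UGT74C1, UGT74B1, GSTU20 and GSL-OH on each array, minus that gene's mean over the 6 arrays; sto2 arrays on the left, wild-type arrays on the right. All 5 genes are lowest on wild-type replicate 1, and BCAT4 covers the widest range.

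Other steps of the pathway were taken from a list of 72 glucosinolate genes, of which 13, the 3 genes among them, had a probe set listed under their gene alone. None of the 13 passed over all probe sets. Of these 13 genes, 7 had higher and 6 had lower means in sto2 on the log2 scale, with a median log2 difference of 0.20, beside -0.01 over all probe sets. Without wild-type replicate 1 the median of the 13 was 0.03, beside -0.01 over all probe sets. Without BCAT4, UGT74C1 and UGT74B1 the median of the other 10 was -0.01, with 4 higher and 6 lower. Unadjusted p-values under 0.05 were found for 5 of the 13, beside 14.1% of all probe sets, and these 5 had differences of both signs. The groups did not overlap for 5 of the 13, beside 19.2% of all probe sets.

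After BCAT4, the largest difference in the list was that of GSTU20. This gene, which encodes a glutathione transferase linked to the core structure of aliphatic glucosinolates, read 1075.5, 838.3 and 1209.3 in sto2 and 446.0, 840.2 and 597.2 in wild type. Its mean was 1041 ± 188 in sto2 and 628 ± 199 in wild type, with a log2 difference of 0.75 ± 0.24 (limma adjusted p = 0.250), and of 0.53 ± 0.21 without wild-type replicate 1 (adjusted p = 0.289). The groups overlapped by a narrow margin, as sto2 replicate 2 read just below wild-type replicate 2. GSL-OH (AT2G25450, given by its locus alone in the tables used here), the oxygenase gene that hydroxylates aliphatic side chains, read 404.6, 323.9 and 400.7 in sto2 and 160.6, 419.4 and 302.8 in wild type. Its log2 difference was 0.43 ± 0.31 (adjusted p = 0.594) and 0.07 ± 0.17 without wild-type replicate 1 (adjusted p = 0.890), and its highest reading was in wild type. The side-chain genes AOP1 and AOP3 had differences of -0.05 ± 0.10 and -0.30 ± 0.10 (adjusted p = 0.889 and 0.272). AOP3 exceeded the bacterial controls on 0 of 3 sto2 arrays and 1 of 3 wild-type arrays, so its difference lies at the background level.

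The 2 transporter genes differed in opposite directions, each with groups that did not overlap, as was so for 19.2% of all probe sets. GTR1 read 57.0, 53.6 and 71.6 in sto2 and 41.5, 44.4 and 50.1 in wild type, a log2 difference of 0.32 ± 0.11 (limma adjusted p = 0.282). GTR2 read 169.6, 133.3 and 166.0 in sto2 and 172.5, 209.6 and 205.8 in wild type, a log2 difference of -0.30 ± 0.12 (adjusted p = 0.328). Neither passed over all probe sets. Among regulators, MYC3, a bHLH partner of the MYB factors that activate the pathway, read 59.3 ± 6.69 in sto2 and 49.3 ± 1.10 in wild type (log2 difference 0.20 ± 0.09, adjusted p = 0.361). Its relative MYC4 and SDI2 (AT1G04770, a sulfur-deficiency gene given by its locus alone), had differences of -0.01 and -0.02. The MYB factors of the pathway, the MAM, CYP79 and CYP83 genes, and the genes for the sulfate donor were among the 59 list members not matched to a named probe set, and were not analysed here. PYK10, a myrosinase gene of roots, exceeded the controls on 1 of the 6 arrays.

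**Figure D4:**
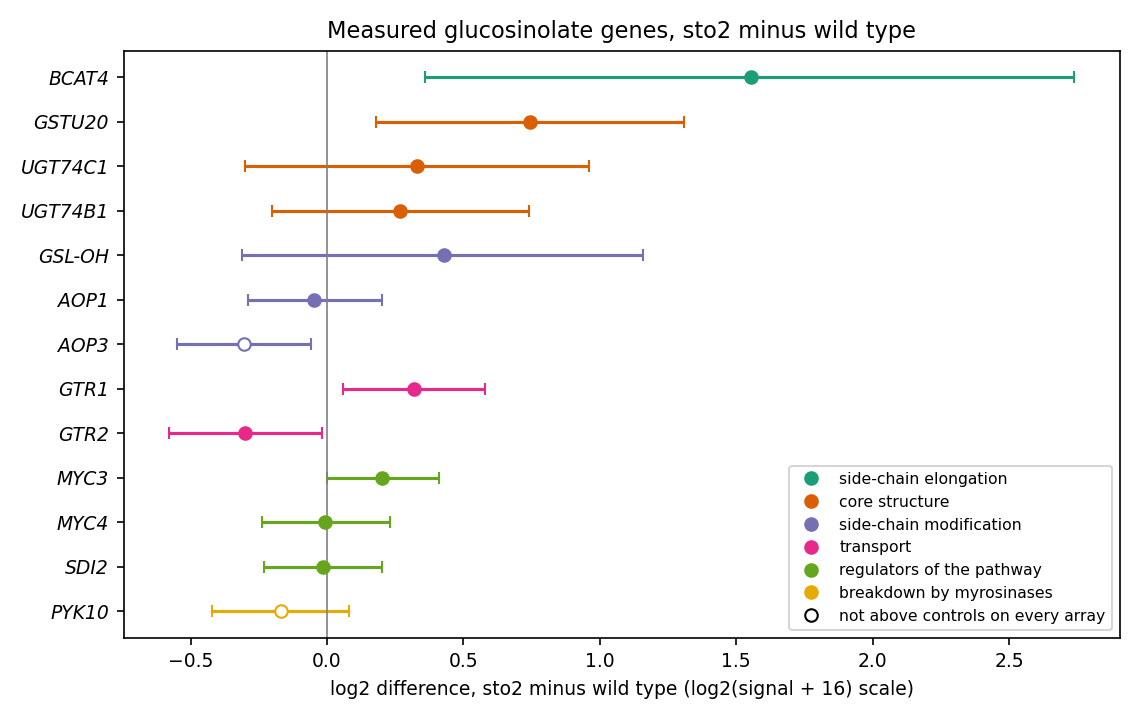
Log2 difference (sto2 minus wild type, log2(signal + 16) scale) of the 13 measured glucosinolate genes, coloured by role, with 95% intervals from limma; open circles mark genes that did not exceed the bacterial controls on every array. BCAT4 at 1.55 and GSTU20 at 0.75 have the largest differences, and GTR1 and GTR2 lie on opposite sides of 0.

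The pathway genes with the closest profiles to the 3 genes were GSTU20 and GSL-OH. GSTU20 had r = 0.97 with BCAT4, 0.81 with UGT74C1 and 0.89 with UGT74B1 over the 6 arrays, and without wild-type replicate 1 these were 0.94, 0.45 and 0.73. GSL-OH had r = 0.92 with BCAT4, 0.93 with UGT74C1 and 0.98 with UGT74B1, and 0.68, 0.47 and 0.89 without that array. The link between GSTU20 and BCAT4 changed least of these 6 when wild-type replicate 1 was left out. The transporter gene GTR1 had r of 0.73 with BCAT4, 0.69 with UGT74C1 and 0.64 with UGT74B1, and 0.56, 0.54 and 0.35 without that array. GTR2 had r of -0.30, 0.18 and 0.15 with the same genes in that order, and -0.60, 0.41 and 0.28 without that array. These correlations are descriptions over arrays shared by all genes, and wild-type replicate 1 enters each of them.

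Measured relatives of the 3 genes outside glucosinolate synthesis had lower correlations with them than GSTU20 and GSL-OH had. So did the measured regulators and AOP genes of the glucosinolate list. Their r with BCAT4 over the 6 arrays ran from -0.46 for AOP3 to 0.63 for MYC3. BCAT5, a branched-chain aminotransferase gene of the same family as BCAT4, read 218.5, 212.3 and 192.1 in sto2 and 156.7, 148.4 and 197.0 in wild type (log2 difference 0.29 ± 0.12, limma adjusted p = 0.329). Its r with BCAT4 was 0.51, and 0.15 without wild-type replicate 1. BCAT6 (AT1G50110, by its locus alone in the tables) read 21.9 ± 5.96 in sto2 and 13.4 ± 2.18 in wild type (limma adjusted p = 0.292), and 5 of its 6 readings lay above the bacterial controls. Its r with BCAT4 was 0.46, and 0.66 without wild-type replicate 1. Of the 7 BCAT family genes 3 were measured. Of the 7 UGT74 genes listed 4 were measured. UGT74D1, whose enzyme glucosylates auxin-related compounds, read 52.2, 51.1 and 41.1 in sto2 and 37.0, 40.0 and 39.8 in wild type (log2 difference 0.22 ± 0.09, limma adjusted p = 0.354). Its r was 0.67 with BCAT4, 0.39 with UGT74C1 and 0.46 with UGT74B1, and 0.51, -0.27 and -0.02 without wild-type replicate 1. UGT74F1, a salicylate glucosyltransferase gene, exceeded the controls on 0 of the 6 arrays.

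To see which genes had the most similar profiles, each of the 3 was correlated with 2019 other named genes that read above the controls on every array and had a log2 SD of at least 0.2. With BCAT4, 2.23% of them had r over 0.9, with UGT74C1 3.12% and with UGT74B1 2.33%. In the order of likeness to BCAT4, GSTU20 took place 9, GSL-OH place 29, UGT74B1 place 60 and UGT74C1 place 142. UGT74B1 took place 8 in the order for UGT74C1, and UGT74C1 took place 10 in the order for UGT74B1, where GSL-OH took place 6. The transporter genes stood lower in the orders for BCAT4, UGT74C1 and UGT74B1, at places 216, 273 and 303 for GTR1 and 1330, 741 and 787 for GTR2. Of 2017 genes, 7 (0.347%) had r over 0.9 with all 3, and GSL-OH was among these 7. Without wild-type replicate 1, 1.83% of genes had r over 0.9 with BCAT4, 0.693% with UGT74C1 and 0.644% with UGT74B1, and 0 of 2017 genes had it with all 3, so the shares were smaller for all 3 and most of all for the glucosyltransferase genes. GSTU20 then took place 22 for BCAT4, GSL-OH place 257, UGT74B1 place 475 and UGT74C1 place 886. UGT74B1 took place 64 for UGT74C1, and for UGT74B1 the places were 46 for UGT74C1 and 15 for GSL-OH. For BCAT4, UGT74C1 and UGT74B1 in that order, GTR1 then took places 444, 208 and 385, and GTR2 took 1617, 329 and 473.

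**Figure D5:**
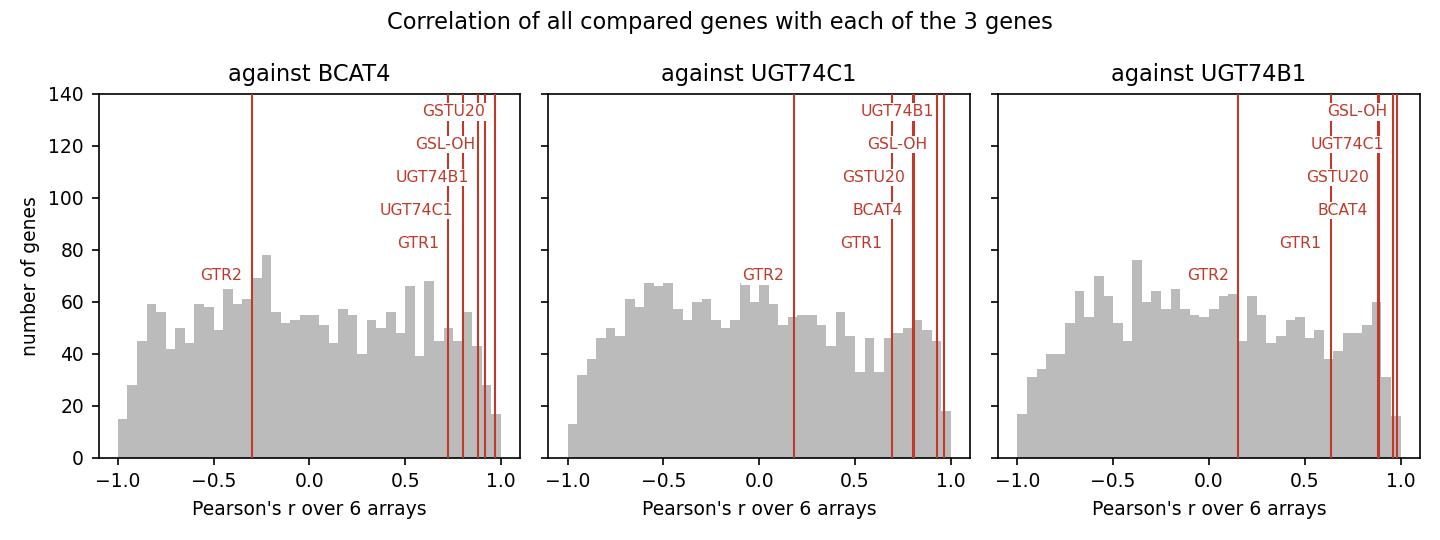
Number of genes by Pearson's r over the 6 arrays with BCAT4, UGT74C1 and UGT74B1, among named genes above the controls on every array and with a log2 SD of at least 0.2; red lines mark the other measured glucosinolate genes in that set. GSTU20, GSL-OH and the other members lie at the right end, at r of 0.80 or more; GTR1 lies between 0.64 and 0.73, and GTR2 between -0.30 and 0.18.

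The 6 genes most like BCAT4 were AT3G06035, AT1G72500, AT1G19140, AT3G62930, AT2G34620 and AT2G47880, with r from 0.991 down to 0.973. AT3G06035 read 188.2, 187.6 and 194.6 in sto2 and 132.4, 186.5 and 152.4 in wild type, so it followed BCAT4 with a much narrower range. The 3 genes most opposed to BCAT4 were AT4G31000, AT4G24440 and BIM1, a bHLH gene of brassinosteroid signalling. BIM1 read 90.4, 99.8 and 93.7 in sto2 and 283.7, 142.4 and 166.7 in wild type (r = -0.975; log2 difference -0.89, limma adjusted p = 0.174). By deviations from the group means alone, AT3G51720, AT3G25570 and AT3G26960 were most like BCAT4, with r of 0.997, 0.994 and 0.992. Without wild-type replicate 1, r with BCAT4 ran from 0.94 to 0.97 for the 6 genes most like it and from -0.94 to -0.92 for the 3 most opposed, BIM1 included.

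The glucosyltransferase genes had SWEET11, a phloem sucrose exporter gene, among the 6 genes most like each of them. For UGT74C1 the other 5 were AT4G24780, AT5G38980, AT1G22930, AT5G65840 and AT2G41790, with r from 0.990 down to 0.979, and for UGT74B1 they were ATSPS4F, a sucrose-phosphate synthase gene, AT3G23450, AT5G63180, AT5G35735 and GSL-OH, with r from 0.991 down to 0.980. The genes most opposed to UGT74C1 were AT1G22270, AT3G57800 and GH3.3, an auxin-conjugating enzyme gene. GH3.3 read 22.7, 75.6 and 36.2 in sto2 and 288.2, 53.6 and 47.3 in wild type (r = -0.985). Those most opposed to UGT74B1 were AT2G39870, AT2G41990 and ULT1, a chromatin regulator gene, with r from -0.993 to -0.982. By deviations from the group means, AT3G56080, AT1G26920 and THIC, a thiamine synthesis gene, were most like UGT74C1, and AT1G21670, AT1G04350 and ATSPS4F most like UGT74B1, all with r of 0.997 or more. Without wild-type replicate 1, r ran from 0.80 to 0.92 for the 6 genes most like UGT74C1 and from 0.89 to 0.98 for those most like UGT74B1. For the genes most opposed it ran from -0.95 to -0.90 and from -0.96 to -0.93, and GH3.3 had -0.90.

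Markers of several leaf cell types were set beside the 3 genes, and their part in these profiles was not tested. SWEET11, the only measured member of 4 phloem markers, read 1212.3, 995.1 and 1112.1 in sto2 and 701.5, 1086.6 and 1049.7 in wild type, lowest on wild-type replicate 1. Its r was 0.86 with BCAT4, 0.97 with UGT74C1 and 0.98 with UGT74B1, and 0.41, 0.80 and 0.92 without wild-type replicate 1. Its log2 difference was 0.24 (limma adjusted p = 0.594), and 0.05 without that array. The summed signal of the guard cell lineage and myrosin cell markers FAMA, MUTE and SPCH ran from 72.7 to 84.0 in sto2 and from 59.4 to 89.8 in wild type. MUTE and SPCH exceeded the controls on 1 of the 6 arrays each. FAMA had r of 0.20 with BCAT4, -0.22 with UGT74C1 and -0.04 with UGT74B1, and 0.49, -0.37 and 0.09 without wild-type replicate 1.

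Photosynthesis markers had correlations of both signs. PRK, a Calvin cycle kinase gene, had r of 0.94 with BCAT4, 0.90 with UGT74C1 and 0.98 with UGT74B1, and 0.79, 0.54 and 0.92 without wild-type replicate 1. RCA, the rubisco activase gene, had r of -0.70, -0.69 and -0.62 with the 3 genes in that order, and -0.06, 0.34 and 0.47 without that array. The light-harvesting gene LHCB4.2 had r of -0.82, -0.58 and -0.56, and -0.55, 0.43 and 0.36 without it. LHCB4.1 had r of 0.53, -0.07 and 0.1, and 0.83, -0.41 and 0.05 without that array. For PSAN r was -0.43, -0.48 and -0.34, and 0.02, 0.02 and 0.37 without it. For PSBY r was -0.3, -0.43 and -0.28, and 0.37, 0.28 and 0.59 without it. The summed signal of the 6 measured photosynthesis markers ran from 23971.0 to 24953.6 in sto2 and from 23856.4 to 25744.0 in wild type. The summed signal of the 3 measured trichome markers, of 5, was lower on every sto2 array, at 380.3 to 418.0 in sto2 and 470.9 to 480.0 in wild type. Most of it was TBR (AT5G06700), which read 324.7, 296.2 and 320.5 in sto2 and 386.8, 373.6 and 378.3 in wild type (limma adjusted p = 0.196). Its r was -0.77 with BCAT4, -0.40 with UGT74C1 and -0.43 with UGT74B1, and -0.73, 0.24 and 0.08 without wild-type replicate 1. Of the 3 trichome markers the groups did not overlap for 1, TBR, beside 19.2% of all probe sets. They overlapped for SIM, with a log2 difference of -0.24, and for TRY, with 0.14. TRY exceeded the controls on 1 of the 6 arrays. In bulk leaf RNA, the number of cells of a type and the RNA per cell cannot be told apart.

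The log2 ratio of 3′ over 5′ signal of the older actin control separated the genotypes, at 2.32, 2.01 and 1.82 in sto2 and 2.52, 2.56 and 2.64 in wild type. Over the 6 arrays the r of this ratio was -0.65 with BCAT4, -0.30 with UGT74C1 and -0.31 with UGT74B1. The other 5 such ratios differed between the genotypes by -0.08 to 0.05. On wild-type replicate 1 the newer ubiquitin ratio was 0.44, against 0.04 to 0.24 on the other arrays. The older GAPDH ratio was lowest on that array, at 0.12, and the newer GAPDH ratio was highest, at -0.16. Both actin ratios and the older ubiquitin ratio of that array lay within the range of the others. The part of RNA quality in the differences was not tested.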

How the data were processed

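Total RNA was biotin-labelled and hybridised by an Affymetrix service provider, per the labels' protocols. The authors deposited linear signal intensity values with 1 decimal; how probes were summarised is not stated in those sources. Every array had the same 2% trimmed mean, 100.009, and medians differed by 0.057 on the log2 scale, so the values were used without another normalization. Scanner files and detection calls were not used here. The background level of an array is the highest of its 27 bacterial control readings, from 9.5 to 18.4.

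The table has 22810 probe sets; the fit took 22746 of them, all but the 64 controls. The probe table pairs 13513 with 1 gene and 503 with several, and 8730 are unlisted; loci and symbols came from a RefSeq table of TAIR10.1. Where a gene had several probe sets, that with the highest mean was used. Values were tested as log2(signal + 16), which understates changes of dim genes, with limma 3.58.1 in R 4.3.3 (lmFit, eBayes, 2-sided) and Benjamini-Hochberg adjustment over all probe sets; intervals are from its moderated SE. Correlations and ratio tests used exact permutation in Python 3.11.15. The limma fit, but not the correlations or ratio tests, was tried on simulated data.

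Same-numbered sto2 and wild-type arrays had correlations of deviations from group means of -0.235, -0.136 and 0.0734, so replicate numbers were not taken to pair the samples. Between arrays of different number they ran from -0.184 to 0.269, highest for sto2 replicate 2 and wild-type replicate 1. The members and gene lists were chosen with earlier results of these data known, and the within-array ratio test and the correlations, list members and likeness without single arrays were added after values were seen. Named genes were the 3 members, every measured gene of the glucosinolate, BCAT and UGT74 lists, and by the rule on likeness the 6 highest and 3 lowest r and the 3 highest r of deviations.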

Additional observations from a re-analysis of the deposited data

How the results depend on the processing

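The log2 differences of BCAT4, UGT74C1 and UGT74B1 stayed positive and did not pass in any of 16 alternatives: quantile normalization, median centring, pseudocounts of 1 and 64, no dimmest 30% or 50%, array weights, an intensity trend with robust prior, the replicate block, a fit on single-gene probe sets alone, and each array left out. Their adjusted p ran from 0.120 to 0.505, from 0.492 to 0.957 and from 0.465 to 0.884. With each array left out the differences ran from 1.00 to 2.10, from 0.03 to 0.50 and from 0.06 to 0.42. With the replicate number as a block BCAT4 had 1.55 (adjusted p = 0.387), and 2 probe sets passed over the array; the block changed no call for the 3 genes. The number of probe sets called, 29 in the fit reported, was 147 and 227 without the dimmest 30% and 50%, 72 with the trend, 70 with array weights, 6 with only single-gene probe sets, 17 and 83 with pseudocounts of 1 and 64, and 5 to 22 with an array left out; the cause was not tested. The median of the glucosinolate list was 0.32 without the dimmest 50%, which keeps 9 members, and 0.0271 to 0.2192 with an array left out, lowest without wild-type replicate 1.

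Without the 2 farthest arrays r was 0.356 for BCAT4 and UGT74B1 and 0.492 for UGT74C1 and UGT74B1. With each array left out it ran from 0.13 to 0.953 for BCAT4 and UGT74C1, from 0.539 to 0.957 for BCAT4 and UGT74B1, and from 0.79 to 0.99 for UGT74C1 and UGT74B1, lowest without wild-type replicate 1 in each. With 3 arrays a group, no exact permutation between genotypes can reach 0.05, and genes near the bacterial controls, such as AOP3 and BCAT6, are measured with little signal over background.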
